A study of Homo sapiens with 6 samples.

Results

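The transcripts described here encode the EGR zinc finger factors EGR1, EGR2 and EGR3 and the subunits of the dimeric factor AP-1, namely FOS, FOSB, FOSL1, FOSL2, JUN, JUNB and JUND. The 10 genes were taken by name from tables of 29638 gene rows. They were selected on the RPKM of these libraries, PA against control, as well as by family, so this contrast describes them and does not test them. Transcripts were measured by RNA sequencing in AC16, an immortal human line derived by fusion of ventricular heart muscle cells with transformed fibroblasts, and all libraries carry the genotype label WT. The 6 libraries comprise 3 of cells that received ethanol (control) and 3 of cells that received a fatty acid, here PA, because the title of the series has palmitic acid while the treatment label has Palmitelaidic Acid. The sources used here give neither its dose nor the length of exposure.

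Values are RPKM, reads scaled by transcript length and library size. They summed to 733025 to 881369 in a library, a figure that is no read depth, and the depth is unknown. The labels do not say whether replicate libraries are separate cultures, and p-values therefore reflect only how far these samples spread, possibly for technical reasons. In such bulk samples fewer cells with a transcript and less RNA per cell cannot be told apart. The cell type label, human cardiomyocytes, was checked against markers. Of 11 cardiomyocyte markers used, TNNI3 alone had a mean of at least 1 RPKM, while TNNT2, MYH6 and MYH7, which define the contractile apparatus, lay between 0 and 0.15 RPKM in every library. Of 12 fibroblast markers, 11 had a mean of at least 1 RPKM. The summed fibroblast markers lay between 2823 and 3367 RPKM in control and between 2637 and 2739 RPKM in PA, which is below the control range. Most of that sum is VIM, at 2332 ± 208 and 2065 ± 101 RPKM, which did not pass (limma adjusted p = 0.341). COL1A1, at 299.2 ± 27.8 and 138.7 ± 51.6 RPKM, also fell in the sum and came just short of passing (limma adjusted p = 0.0510). Log2 differences were negative for 9 of the tested fibroblast markers and positive for 2, while 52.5% of all genes were negative. Of the 11 tested, 2 were lower (18.2%, against 1.97% of all genes) and 0 higher (against 2.84%). COL3A1 fell from 3.81 ± 0.247 to 0.860 ± 0.0781 RPKM (limma adjusted p = 0.00731) and FAP from 19.9 ± 2.07 to 11.5 ± 1.28 RPKM (limma adjusted p = 0.0281). Those calls were kept in 5 and 1 of 6 fits that each left out a library. The summed cardiomyocyte markers moved the other way, from between 1.51 and 3.31 RPKM in control to between 4.12 and 5.07 RPKM in PA, and TNNI3 rose from 0.913 ± 0.418 to 3.30 ± 0.695 RPKM (limma adjusted p = 0.0288). TNNI3 made up most of the PA sums, at 3.32, 3.99 and 2.60 RPKM. The other cardiomyocyte markers averaged under 1 RPKM and went both ways, with NPPA from 0.177 to 0 RPKM and ACTC1 from 0.177 to 0.297 RPKM. The part of these shifts in the results below was not tested.

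Immediate early genes are transcribed within minutes of a stimulus without new protein synthesis. Kinases of the ERK, JNK and p38 families phosphorylate factors already bound at their promoters, among them serum response factor (SRF) with its ELK partners and CREB. EGR proteins bind GC-rich sites and are held in check by the corepressors NAB1 and NAB2. JUN proteins dimerise with each other or with FOS proteins to form AP-1, whose output depends on which subunits pair, and FOS proteins cannot form AP-1 without a JUN partner. In the heart these factors respond to stretch, growth factors and hypertrophic signals.

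The promoters of EGR1, EGR2, JUNB and JUN are shown as examples, with matches to sequence motifs marked. Windows of 300 bases, from 250 before to 50 after an annotated start, were available in RefSeq (GRCh38.p14) for 8 of the 10 genes. The EGR1 window is chr5:138465229-138465528 on the plus strand. Its capitals mark 2 CArG boxes, the motif of SRF, the EGR motif GCGNGGGCG and the core of the cyclic AMP response element, TGACG, which reads CGTCA on the other strand. EGR2 has 3 annotated windows, of which chr10:62816317-62816616 on the minus strand holds a CArG box, and its capitals mark that box and the TGACG core. The JUNB window is chr19:12791236-12791535 on the plus strand, with the TGACG core and the TATA box motif TATAAA in capitals. The JUN window is chr1:58783998-58784297 on the minus strand, with the TGACG core and the variant AP-1 site TGACATCA in capitals.
EGR1: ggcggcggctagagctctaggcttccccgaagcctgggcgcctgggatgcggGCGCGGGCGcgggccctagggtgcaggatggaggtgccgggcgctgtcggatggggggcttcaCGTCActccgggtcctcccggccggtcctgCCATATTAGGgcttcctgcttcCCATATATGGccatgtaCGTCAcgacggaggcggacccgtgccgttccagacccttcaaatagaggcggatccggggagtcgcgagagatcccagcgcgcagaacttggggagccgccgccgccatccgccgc
EGR2: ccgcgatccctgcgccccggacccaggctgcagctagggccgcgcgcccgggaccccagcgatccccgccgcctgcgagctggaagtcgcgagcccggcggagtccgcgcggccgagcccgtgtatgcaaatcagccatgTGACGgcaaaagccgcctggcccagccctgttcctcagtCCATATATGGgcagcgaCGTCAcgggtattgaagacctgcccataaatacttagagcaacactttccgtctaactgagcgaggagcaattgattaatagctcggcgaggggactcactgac
JUNB: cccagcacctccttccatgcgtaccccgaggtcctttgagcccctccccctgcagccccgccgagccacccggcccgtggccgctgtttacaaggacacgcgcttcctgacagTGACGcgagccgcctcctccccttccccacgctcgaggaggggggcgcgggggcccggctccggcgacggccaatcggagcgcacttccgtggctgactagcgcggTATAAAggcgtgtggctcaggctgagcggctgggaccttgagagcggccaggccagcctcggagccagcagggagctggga
JUN: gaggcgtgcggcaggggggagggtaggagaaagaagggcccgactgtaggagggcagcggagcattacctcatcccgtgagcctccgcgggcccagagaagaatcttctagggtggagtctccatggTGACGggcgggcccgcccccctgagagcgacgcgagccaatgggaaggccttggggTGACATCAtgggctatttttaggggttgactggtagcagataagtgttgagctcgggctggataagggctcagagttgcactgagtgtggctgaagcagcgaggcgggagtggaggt

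The CArG boxes of EGR1 begin at positions -105 and -83 and that of EGR2 at -71, counted from the start with no position 0. Both strands were searched, with motifs chosen after the windows had been read. A CArG box occurred in 1.29% of all 35116 windows and in 2 of the 8 genes here, EGR1 and EGR2. The TGACG core occurred in 24.6% of all windows and in all 8 genes. The full cyclic AMP response element TGACGTCA, which contains the core, occurred in 1.85% of windows and here in JUND. The AP-1 site TGANTCA occurred in 7.71% of windows and here in FOSL2, the TGACATCA variant in 2.61% and here in JUN, and the TATAAA motif in 11.5% and here in FOS, FOSB and JUNB. The EGR motif occurred in 9.43% of windows and here in EGR1 and in another window of EGR2. These matches describe letters in a window and not binding. Sites further upstream than 250 bases were not searched, so a gene without a match here may carry the motif there.

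EGR1 and JUNB stood out from the other members in the size of their difference between PA and control. EGR1 averaged 62.1 ± 4.70 RPKM in the control libraries and 149.5 ± 13.1 RPKM in the PA libraries (SD, n = 3 in each), 2.41 times the control mean. JUNB was at 31.4 ± 5.03 and 60.7 ± 2.41 RPKM, 1.93 times the control mean. FOS, JUN and EGR2 were also higher in every PA library than in every control library, by smaller amounts. EGR3, FOSB, FOSL1, FOSL2 and JUND had overlapping groups.

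**Figure D1:**
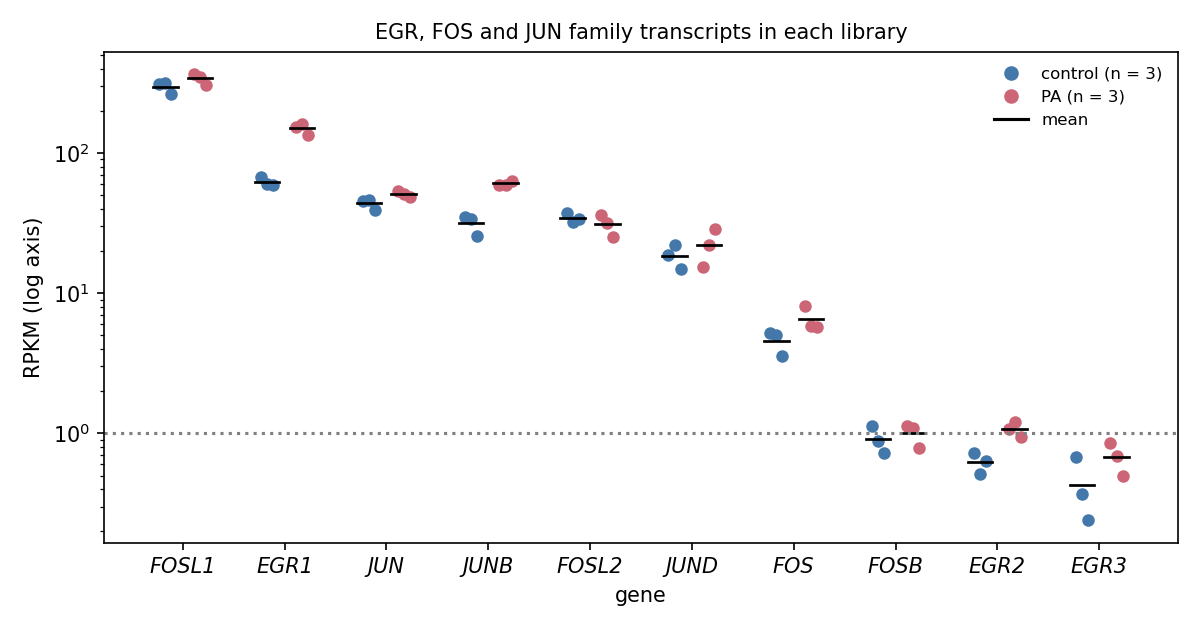
RPKM on a log axis of the 10 EGR, FOS and JUN family genes, ordered by their mean over 6 libraries, with 1 point per library, a bar at each group mean and a dotted line at 1 RPKM, the filter used for testing. FOSL1 and EGR1 lie at the top, and EGR1 and JUNB show the widest gaps between the groups.

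Because the genes were chosen with results of this contrast in view, their values are given as a description and without a test. All 14159 genes averaging 1 RPKM or more were fitted with limma on log2(RPKM + 1), and fold changes on this scale understate those of low genes. Of the 10 genes, 7 met this filter, while FOSB, EGR2 and EGR3 did not. EGR1 and JUNB, 2 of these 7, were among the genes higher in PA past an adjusted p of 0.05, which were 2.84% of all genes tested, and 0 were among the genes lower in PA, which were 1.97%. Both directions together made up 4.81%. All 3 PA values lay above all 3 control values in 5 of the 10 genes, of which 4 are among the 7 tested, and in 16.7% of all genes tested. All 3 lay below in 0 of the 10 and in 15.9% of all genes tested. With 1 library left out at a time, EGR1 alone was past the threshold without control 1 or control 2, and neither gene was without PA 2. Over all tested genes calls higher in PA were 59.0% of the total, and 39.0% once each library was rescaled to the same RPKM sum, which moved the median log2 difference of all genes from -0.02 to -0.11.

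Among the EGR factors, EGR1 made up nearly all of the transcript. Its control libraries were at 67.5, 60.1 and 58.8 RPKM and its PA libraries at 152.5, 160.8 and 135.2 RPKM. The lowest PA library was thus above the highest control library, a log2 difference of 1.25 ± 0.11 (SE). Leaving out single libraries kept this difference between 1.20 and 1.32. EGR2, which is known for its role in Schwann cell myelination and in lymphocytes, was at 0.730, 0.510 and 0.640 RPKM in control and at 1.07, 1.21 and 0.940 RPKM in PA. Its groups did not overlap, but all its values lay near or under 1 RPKM. EGR3, known from muscle spindles and lymphocytes, was at 0.680, 0.370 and 0.240 RPKM in control and 0.860, 0.690 and 0.50 RPKM in PA. The EGR3 groups overlapped. EGR1 accounted for between 98.0% and 98.6% of the summed EGR transcript in control and between 98.8% and 98.9% in PA.

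The JUN family shifted in composition. JUNB, a JUN protein with weaker transactivation than JUN at many sites, was at 34.8, 33.8 and 25.6 RPKM in control and at 59.2, 59.5 and 63.5 RPKM in PA. Every PA library was far above the highest control library, with a log2 difference of 0.94 ± 0.13. JUN, the archetypal AP-1 subunit and substrate of the JNK kinases, was at 45.3, 46.2 and 39.3 RPKM in control and 54.0, 51.0 and 48.7 RPKM in PA. Its groups did not overlap, but the gap was small, a log2 difference of 0.23 ± 0.11. JUND, the subunit usually expressed at a steady level in resting cells, was at 18.8, 22.1 and 14.8 RPKM in control and 15.4, 21.9 and 28.7 RPKM in PA. The JUND groups overlapped, PA 3 was the highest, and the log2 difference of 0.21 ± 0.23 was smaller than its error.

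JUN exceeded JUNB in every control library and JUNB exceeded JUN in every PA library. The ratio of JUNB to JUN in RPKM was 0.768, 0.731 and 0.652 in control and 1.1, 1.17 and 1.30 in PA. JUNB made up 33.5% ± 1.55 of the summed JUN family transcript in control and 45.3% ± 0.598 in PA (SD, n = 3 per group), while JUN went from 46.8% ± 2.19 to 38.4% ± 3.71. These shares do not depend on a single scaling factor per library, but a trend in transcript length or GC content can move them. With such a trend removed, the log2 difference was 0.77 for JUNB and 0.26 for JUN, against 0.94 and 0.23 as deposited. JUND held 19.7% ± 1.67 in control and 16.3% ± 4.18 in PA, with overlapping groups. The family sum averaged 93.5 ± 12.1 RPKM for control and 133.9 ± 6.29 RPKM in PA, without overlap.

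**Figure D2:**
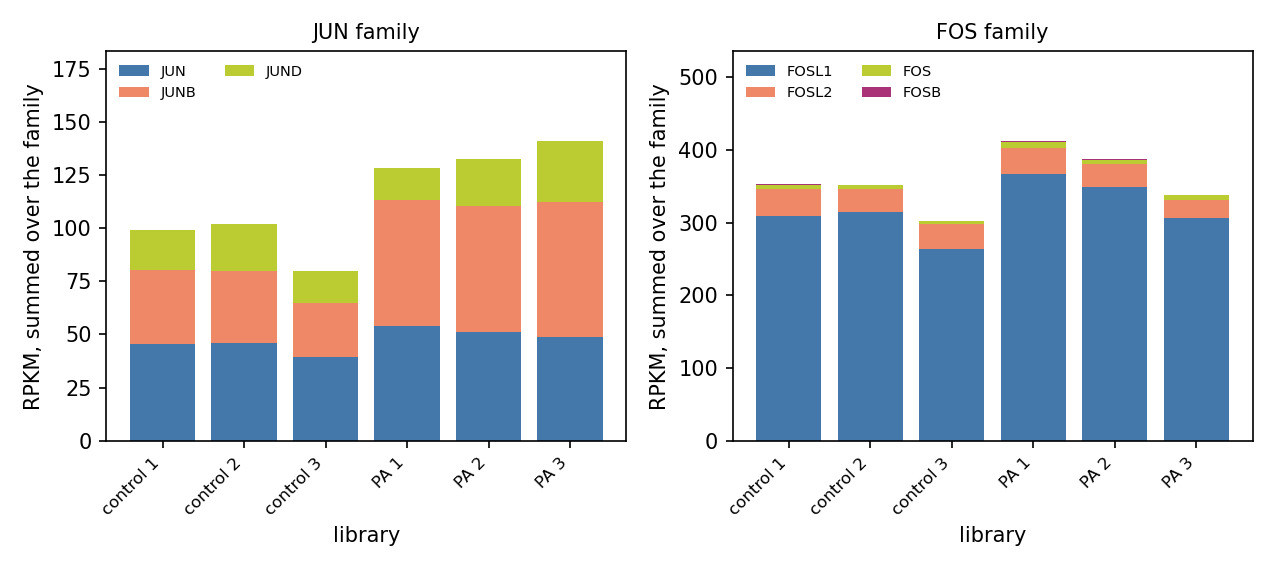
RPKM of the JUN family (left) and FOS family (right) stacked by gene for each of the 6 libraries, on linear axes from 0. JUNB takes the larger share in the 3 PA libraries, and FOSL1 fills most of the FOS family bar in all 6 libraries.

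In the FOS family, FOSL1 (Fra-1), a subunit that lacks the transactivation domains of FOS and is known from cells with sustained ERK signalling, was by far the most abundant. It was at 309.3, 314.4 and 264.5 RPKM in control and 366.6, 348.8 and 306.8 RPKM in PA. The groups overlapped, since PA 3 lay below control 1 and control 2, and the log2 difference was 0.20 ± 0.12. FOSL2 (Fra-2) was at 37.6, 32.3 and 33.8 RPKM in control and 36.3, 31.9 and 25.0 RPKM in PA. Its groups overlapped, and its log2 difference of -0.16 ± 0.15 was the negative one among the 7 genes above the filter. FOS itself, the partner of JUN in classical AP-1, was at 5.16, 5.03 and 3.59 RPKM in control and 8.10, 5.80 and 5.77 RPKM in PA. Its groups did not overlap, PA 1 stood above the rest, and the log2 difference was 0.43 ± 0.17. FOSB was at 1.12, 0.880 and 0.720 RPKM in control and 1.12, 1.1 and 0.790 RPKM in PA, with overlapping groups.

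FOSL1 made up 88.0% ± 0.961 of the summed FOS family transcript in control and 89.9% ± 0.856 in PA, with overlapping groups. FOS made up 1.36% ± 0.150 and 1.72% ± 0.235, and FOSL2 10.3% ± 1.03 and 8.14% ± 0.703, both without overlap. The FOS family sum divided by the JUN family sum was 3.57, 3.46 and 3.8 in control and 3.21, 2.92 and 2.40 in PA. All 3 PA ratios were below the control ratios. The FOS sum itself overlapped between the groups, at 336.1 ± 29 and 379.3 ± 37.6 RPKM.

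By mean RPKM over all libraries the order was FOSL1, EGR1, JUN, JUNB, FOSL2, JUND, FOS, FOSB, EGR2 and EGR3. This pooled order held in neither group. In control the mean of FOSL2 was above that of JUNB, and in PA JUNB was above JUN and EGR2 above FOSB. Some neighbours could not be separated. JUNB and FOSL2 overlapped in control, FOSL2 and JUND overlapped in PA, and FOSB overlapped EGR2 and EGR3 in PA. EGR1 lay above JUN in every library, and FOSL1 above EGR1 in every library.

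Transcript composition differed among the members and moved with the differences of genes in general. The median log2 difference of protein-coding genes was -0.15 for transcripts under 40% GC, 0.04 between 55% and 60%, 0.12 between 60% and 65% and 0.20 from 65% on. EGR1 has a GC content of 55.4%, JUN 56.7%, JUNB 64.9% and JUND 69.7%, by GENCODE 29. After removal of a trend in transcript length and GC content from each library, the log2 difference was 1.28 for EGR1, 0.26 for JUN, 0.77 for JUNB and 0.29 for FOS. It was 0.04 for FOSL1, -0.05 for FOSL2 and -0.04 for JUND. The EGR1 difference was thus as large without the trend, and that of JUNB was smaller but still exceeded that of JUN. JUND, and the FOSL1 and FOSL2 difference, came close to 0.

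**Figure D3:**
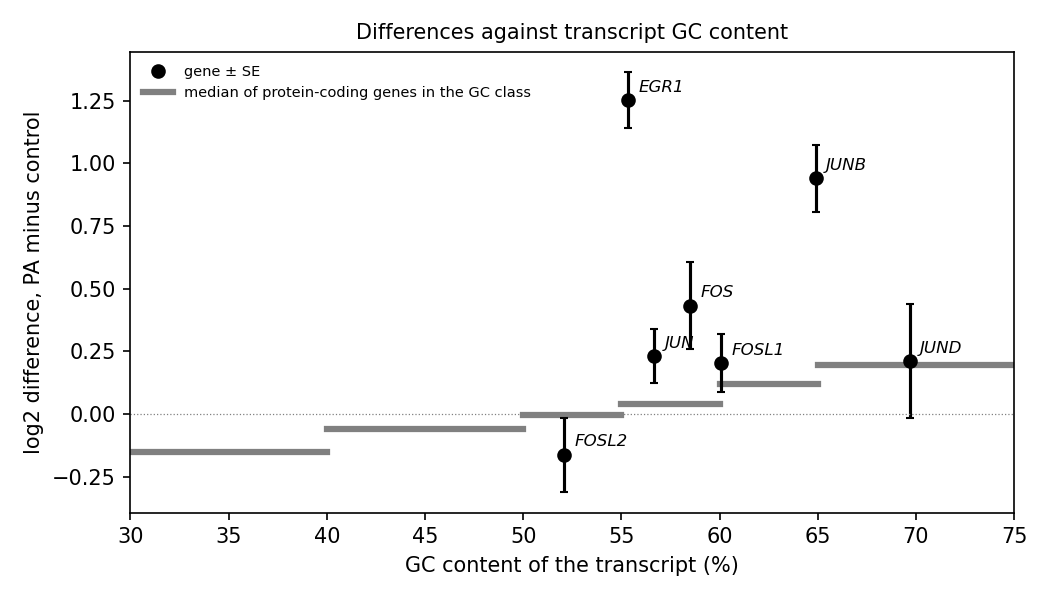
Log2 difference of log2(RPKM + 1), PA minus control, against GC content of the transcript for the 7 genes above the filter, with limma standard errors, and the median of all tested protein-coding genes in each GC class (the axis starts at 30%). EGR1 and JUNB lie far above the median of their class, and JUND lies on it.

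**Figure D4:**
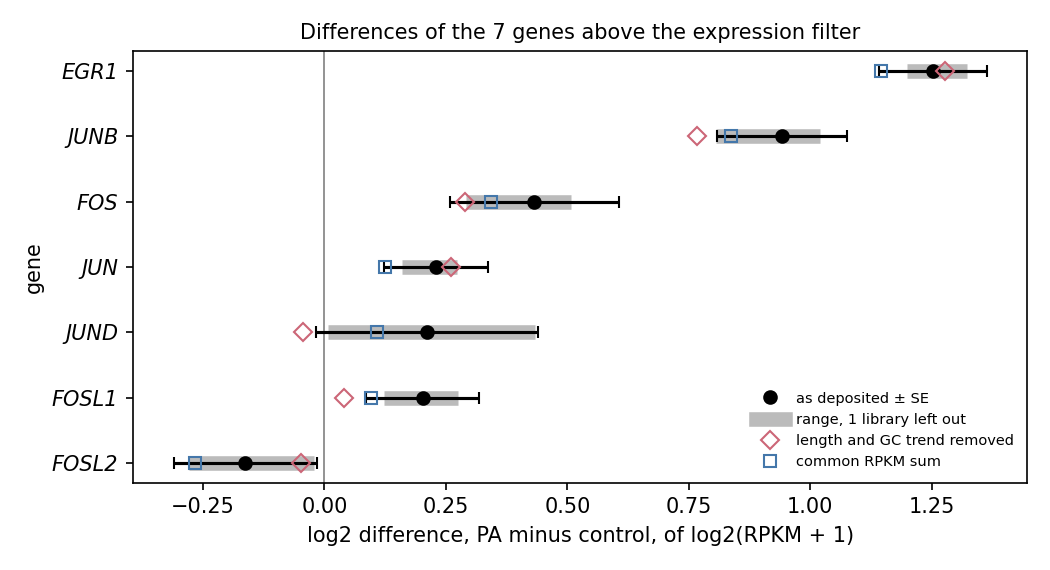
Log2 differences of the same 7 genes as deposited with standard errors, the range when 1 library is left out, and the values without the length and GC trend or rescaling to a common RPKM sum. EGR1 stays between 1.15 and 1.32 and JUNB between 0.77 and 1.02 in these settings.

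Exon number differed between the families, with 2 exons in each EGR gene and 4 in each gene of the FOS family. JUN, JUNB and JUND each consist of a single exon, as do 2.05% of tested protein-coding genes, and single-exon genes as a class had a median log2 difference of -0.04. The exons of JUNB overlap HOOK2 on the opposite strand, which averaged 11.6 RPKM in control libraries and 13.9 RPKM in PA libraries, lower than JUNB in both. Whether strand was used in counting is not stated, so reads of this pair may not be separable. EGR3 overlaps AC055854.1 in the same way, and the other members overlap no listed gene. Each of the 10 genes has at least 1 AUUUA pentamer, the core of AU-rich decay elements, in the 3′ untranslated region of its representative transcript, as do 69.2% of tested protein-coding genes. The longer decay motif TTATTTATT, in DNA letters, occurs in FOS and FOSL2 and in 8.55% of tested genes, and is shown in capitals with 8 bases on either side because no other member carries it.
FOS: tttttaatTTATTTATTaagatgga
FOSL2: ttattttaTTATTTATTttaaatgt
Tested genes with this motif had a median log2 difference of -0.09, against -0.01 for those without it.

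Tested genes with the SRF motif had the median of genes in general. Of tested protein-coding genes 146 held a CArG box in a promoter window, of which 6 were higher in PA (4.11%), among them EGR1 and PDGFA, and 1 was lower (0.685%). Of the 9440 tested protein-coding genes with any window, 2.89% were higher and 2.01% lower. The median log2 difference was -0.02 in both.

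The genes whose profile over the 6 libraries was most like that of EGR1, by root mean square distance of log2(RPKM + 1) from the control mean among 11895 protein-coding genes, were PTP4A3 (0.0674), REEP6 (0.112), PLAT (0.134), H1F0 (0.180) and PPDPF (0.183). PTP4A3 was low, averaging 1.22 RPKM in control libraries and 4.01 RPKM in PA libraries, where log2(RPKM + 1) understates fold changes. PLAT, which encodes tissue plasminogen activator, was at 48.2, 48.1 and 44.3 RPKM in control and 112.0, 100.3 and 94.0 RPKM in PA. H1F0, a linker histone, averaged 215.7 RPKM in control libraries and 434.9 RPKM in PA libraries. Those most like JUNB were TRAPPC6A (0.0674), IFI27L2 (0.0691), MAP1LC3A (0.0735), TMEM134 (0.0834) and PCK2 (0.0858). In the order named, GC content was 62.6%, 66.8%, 55.2%, 53.2% and 68.5% for those near EGR1. It was 63.1%, 55.4%, 64.5%, 59.7% and 59.65% for those near JUNB. Higher in PA were 5.93% of protein-coding genes with 60% to 65% GC and 9.29% from 65% on, against 3.08% of all. The part of GC content in these profiles was not tested. MAP1LC3A, an autophagosome protein, was at 30.6, 30.8 and 21.9 RPKM in control and 51.4, 55.1 and 62.4 RPKM in PA. As in JUNB, control 3 was the lowest library and PA 3 the highest, which is no separate result because the gene was chosen by its likeness to JUNB. The RPKM sum was also lowest in control 3 (733025) and highest in PA 3 (881369). The part of these sums in that order was not tested.

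Other immediate early genes were higher in PA or did not pass the limma test. Of 25 listed, 21 were tested, of which 4 were higher (19.0%, against 2.84% of all genes) and 0 lower (against 1.97%). The median log2 difference of the 21 was 0.31, against -0.02 for all genes tested. IER2, a small nuclear immediate early protein, rose from 34.6 ± 4.85 to 54.98 ± 0.764 RPKM (SD, n = 3 in each group) by 0.66 ± 0.12 (SE) on the log2 scale, limma adjusted p = 0.0330. CCN1, a matricellular protein, rose from 373.1 ± 22.3 to 572.9 ± 4.83 RPKM (0.62 ± 0.09, limma adjusted p = 0.0218). BTG2, an antiproliferative factor, and ZFP36, which binds AU-rich elements and promotes decay of their transcripts, rose by 0.59 ± 0.11 and 0.55 ± 0.11 (limma adjusted p = 0.0333 and 0.0347). Leaving out PA 3 gave a count of 2, and leaving out any other single library, controls 1, 2 and 3, PA 1 or PA 2, gave 0. The count was 9, all higher, once the trend was taken out, and 2 with a common RPKM sum. Calls over all genes moved as well, from 402 higher and 279 lower of 14159 tested. They were 1193 higher and 1049 lower of 13481 without the trend, and 207 higher and 324 lower with a common RPKM sum. EGR4 was at 0 to 0.02 RPKM, and NR4A2, NR4A3 and ARC were also under the filter.

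Upstream of these genes, 1 transcript of the kinases and promoter-bound factors passed limma. Of 21 tested, MAPK3 was higher (4.76%, against 2.84% of all genes) and 0 were lower (against 1.97%). Negative log2 differences were found for 16 of the 21, and for 52.5% of all genes tested. The median of the list was -0.22, but -0.05 without PA 3 and -0.13 without control 3. MAPK3, which encodes the kinase ERK1, rose from 46.5 ± 3.86 to 68.0 ± 6.90 RPKM (0.54 ± 0.12, limma adjusted p = 0.0452), a call that was kept in 1 of 6 fits that each left out a library, without PA 3, and was lost with a common RPKM sum (limma adjusted p = 0.0955). With that scaling the list's call was ATF1, a CREB relative, which was lower (limma adjusted p = 0.0474) and is named outside the rule. Of the JNK genes, MAPK8 was at 61.5 ± 8.41 and 46.3 ± 3.88 RPKM (-0.40 ± 0.13, limma adjusted p = 0.112) and MAPK9 at 21.8 ± 1.85 and 20.4 ± 2.58 RPKM (-0.09 ± 0.13, limma adjusted p = 0.678). SRF was at 20.8 ± 1.76 and 19.9 ± 2.05 RPKM (-0.06 ± 0.12, limma adjusted p = 0.776). Its partners ELK1 (-0.26), ELK3 (-0.30) and ELK4 (-0.25) did not pass (limma adjusted p = 0.230, 0.102 and 0.219). These are transcript levels and not kinase or factor activities. The list's median was -0.07 once the trend was taken out.

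The EGR corepressors did not pass. NAB2, itself known as a target of EGR1, was at 26.7, 25.3 and 23.0 RPKM in control and 26.9, 26.2 and 22.1 RPKM in PA (0.00 ± 0.12, limma adjusted p = 0.998), and its exons overlap STAT6 on the opposite strand. STAT6 exceeded NAB2 in both groups on average, at 39.7 RPKM in control libraries and 28.04 RPKM in PA libraries, and reads of this pair may not be separable either. NAB1 was at 27.3 ± 0.930 and 22.5 ± 2.13 RPKM (-0.27 ± 0.11, limma adjusted p = 0.158). The ratio of EGR1 to NAB2 in RPKM was 2.53, 2.37 and 2.56 in control and 5.66, 6.15 and 6.12 in PA, without overlap. Among 10 tested other bZIP factors that can pair with AP-1 subunits, 1 was higher (10%, against 2.84% of all genes) and 0 lower, with a median of -0.04 that turned to 0.01 without control 2 and 0.02 without PA 3. BATF3, a partner of JUN proteins in immune cells, rose from 9.45 ± 1.16 to 15.1 ± 1.88 RPKM (0.62 ± 0.13, limma adjusted p = 0.0438), and this call was lost in each of the 6 fits that left out a library.

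Genes known as targets of EGR1 went both ways. Of 14 tested, 3 were higher (21.4%, against 2.84% of all genes) and 3 lower (21.4%, against 1.97%), with a median of 0.09. F3, which encodes tissue factor, the initiator of coagulation, fell from 45.8, 50.9 and 50.4 RPKM to 21.3, 21.2 and 23.8 RPKM, without overlap (-1.12 ± 0.10, limma adjusted p = 0.00731). THBS1, the matrix glycoprotein thrombospondin, fell from 183.8 ± 7.24 to 82.6 ± 20.4 RPKM (-1.17 ± 0.17, limma adjusted p = 0.0200). FGF2, a growth factor, fell by 0.59 on the log2 scale (-0.59 ± 0.12, limma adjusted p = 0.0357). GDF15, a stress-induced cytokine, rose from 13.4 ± 1.45 to 20.4 ± 0.315 RPKM (0.58 ± 0.11, limma adjusted p = 0.0343). The other genes that rose were CDKN1A, a cell cycle inhibitor (0.51 ± 0.10, limma adjusted p = 0.0352), and PDGFA, a growth factor (0.48 ± 0.11, limma adjusted p = 0.0490), both named outside the rule to complete the calls. The exons of FGF2 and THBS1 overlap antisense partners, NUDT6 and AC037198.2. F3 was past the threshold in 5 of 6 fits that left out a library, THBS1 in 2, CDKN1A in 1 and FGF2, GDF15 and PDGFA in 0. The count was 1 when control 1, 2 or 3 was left out, 2 when PA 1 was, 0 when PA 2 was and 3 when PA 3 was. With a common RPKM sum, 3 were lower and 0 higher, and once the trend was taken out 6 were higher and 3 lower. Over all genes those settings gave 324 lower and 207 higher of 14159 tested, and 1193 higher and 1049 lower of 13481. The median ranged from 0.05 without PA 2 to 0.26 without PA 3 and was 0.00 with a common RPKM sum.

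Genes known as targets of AP-1 were mostly lower in value. Of 17 tested, 4 were lower (23.5%, against 1.97% of all genes) and 1 higher (5.88%, against 2.84%), and 13 had negative values, with a median of -0.33. MMP3, the metalloproteinase stromelysin, fell from 5.89, 6.81 and 6.36 RPKM to 1.78, 1.70 and 2.14 RPKM, without overlap (-1.36 ± 0.13, limma adjusted p = 0.00731). INHBA, which encodes an activin subunit, fell from 3.92 ± 0.201 to 1.1 ± 0.250 RPKM (-1.24 ± 0.14, limma adjusted p = 0.0117). SPHK1, sphingosine kinase, fell from 48.4 ± 7.18 to 26.1 ± 1.5 RPKM (-0.86 ± 0.13, limma adjusted p = 0.0230), and its exons overlap PRPSAP1 on the opposite strand. The cytokine IL6, named outside the rule to complete the calls, fell as well (-0.66 ± 0.13, limma adjusted p = 0.0349), and overlaps STEAP1B on the opposite strand. AREG, an EGF receptor ligand, rose from 2.31 ± 0.295 to 5.04 ± 1.17 RPKM (0.85 ± 0.17, limma adjusted p = 0.0349). MMP3 was past the threshold in 5 of 6 fits that left out a library, INHBA in 4, SPHK1 in 2, IL6 in 1 and AREG in 0. Leaving out control 1, 2 or 3 gave counts of 1, 2 and 3, and leaving out PA 1, 2 or 3 gave 2, 0 and 5. The median was -0.22 without PA 3. With the trend in length and GC taken out, 7 were lower and 1 higher, beside 1049 lower and 1193 higher of all 13481 genes tested.

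**Figure D5:**
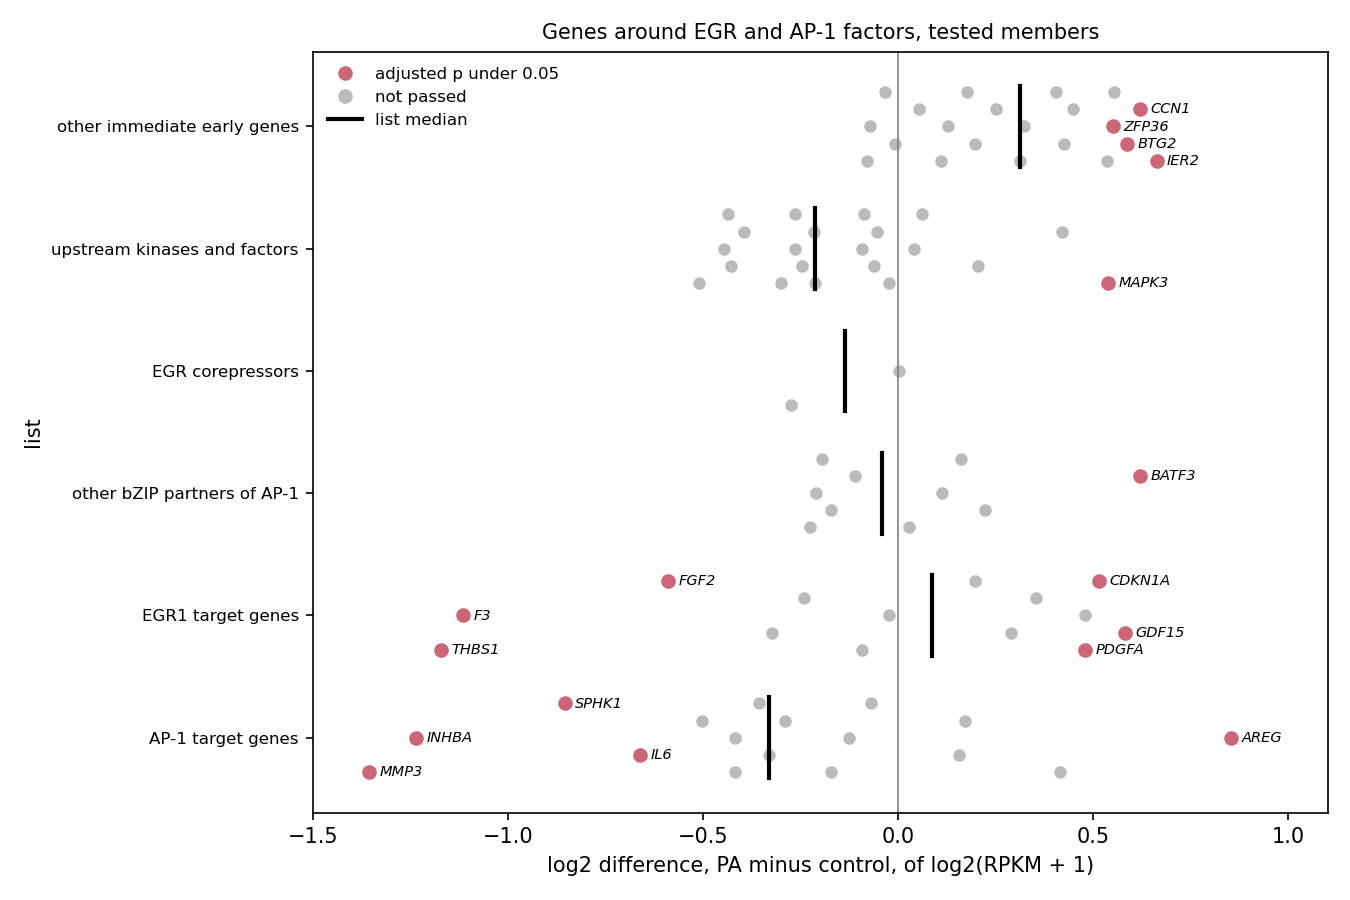
Log2 difference of log2(RPKM + 1), PA minus control, of each tested gene in 6 lists around the EGR and AP-1 factors, with genes past a limma adjusted p of 0.05 in red and a bar at each list median. The median of other immediate early genes is 0.31 and that of AP-1 target genes -0.33.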

How the data were processed

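RNA sequencing of 3 control and 3 PA libraries of AC16 cells was deposited as RPKM with 2 decimals per gene, per the file headers and names. FastQC, fastp, HISAT2, StringTie, RSEM and hg19 are named, per the submitters' processing notes, with no role or version. The sources used here do not state the gene models, strand setting or handling of multiply mapped reads.

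Genes averaging 1 RPKM or more were fitted with limma 3.58.1 in R 4.3.3 (eBayes with trend, two-sided, Benjamini-Hochberg threshold 0.05) on log2(RPKM + 1), without covariates. The fit was tested in 5 runs on data simulated with independent normal noise for each gene. Those data hold no trend in length or GC content, so the runs cannot show how such a trend affects the calls. With 3 libraries a group, the smallest p of an exact permutation test is 0.1. The members and lists were chosen with earlier results of these data known, so the members' values carry no test. Of each other list, the rule named up to 4 genes past the threshold by absolute log2 difference. SRF, MAPK3, the ELK, NAB and JNK genes and the 5 genes nearest to EGR1 and to JUNB were always named. TGFB1, MAF and MYL7 were listed but not used here. Another gene that the rule always names is not reported here. Of a symbol with several rows, the row whose Ensembl identifier carries it was used. GENCODE 29, on another build, matched 28380 rows and gave lengths, GC content, exons and overlaps, but no coordinates. Length and GC content, found for 95.2% of tested genes, are medians over basic protein-coding transcripts, or over other transcripts where a gene had none. The trend was fitted with splines of 4 degrees of freedom. Promoters are from RefSeq, GRCh38.p14. Alternatives covered pseudocount, filter, scaling, variance model, replicate block, threshold, trend, gene type and each library left out.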

Additional observations from a re-analysis of the deposited data

How the results depend on the processing

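The count of 681 genes past the threshold was 72 without a filter on low values, 1157 with protein-coding genes alone, 2242 with the length and GC trend removed and 29 at an adjusted p of 0.01. It lay between 10 and 364 with 1 library left out. The count of 2 members was 1 without a filter and at an adjusted p of 0.01, and between 0 and 2 with 1 library left out. Replicate numbers are shared between the groups. Deviations of same-numbered libraries from their group means correlated at 0.157, -0.0144 and 0.0371 over 14159 genes. Those of differently numbered libraries correlated at -0.179 to 0.121. The 0.157 of replicate 1 was the highest of all these pairs, and the values do not settle whether libraries were paired. With the replicate block 98 genes passed, of which 1 is a member, and the calls were 0 for other immediate early genes, 0 for upstream genes, 0 for bZIP partners, 2 for EGR1 targets and 2 for AP-1 targets.

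Calls among other immediate early genes (4) were 0 without a filter, 2 with a common RPKM sum, 9 with the trend removed, 0 at an adjusted p of 0.01 and between 0 and 2 with 1 library left out. Calls among upstream genes (1, higher) were 2 with a pseudocount of 0.1 or 5 or quantile normalization (1 higher, 1 lower), 3 with a mean RPKM of at least 5, the trend removed or protein-coding genes alone (1 higher, 2 lower), 1 with a common RPKM sum (lower), and 0 without a filter, with eBayes without trend or at an adjusted p of 0.01, and between 0 and 1 with 1 library left out. Calls among bZIP partners (1) were 0 without a filter, with a common RPKM sum, with eBayes without trend, at an adjusted p of 0.01 and with any library left out. Calls among EGR1 targets (6) were 1 without a filter, 3 with a common RPKM sum, 9 with the trend removed, 1 at an adjusted p of 0.01 and between 0 and 3 with 1 library left out. Calls among AP-1 targets (5) were 1 without a filter, 2 with a mean RPKM of at least 5, 8 with the trend removed, 1 at an adjusted p of 0.01 and between 0 and 5 with 1 library left out.

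Over the 7 members above the filter, 94 of 98 recomputed log2 differences moved by less than the replicate SD. The settings of the filter and the replicate block cannot change a log2 difference, so part of the 94 was fixed in advance. Read depth is unknown, so no counting error can be given for the low members FOSB, EGR2 and EGR3.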
